A study of Mus musculus with 9 samples.

Results

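The Nduf genes, which encode the nuclear subunits of mitochondrial complex I and a family of factors that assemble it, were followed across undifferentiated and differentiating primary mouse adipose cells. Members were all genes whose symbol starts with Nduf, and 47 of the 32285 genes in the count tables met this rule. Of these, 37 encode subunits of complex I, 8 are assembly factors named Ndufaf, and the remaining 2 are Ndufa4, now held to belong to complex IV, and its paralog Ndufa4l2. All 47 passed the filter on low counts (at least 5 counts in at least 3 libraries), and the lowest count of any member in any library was 170.

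RNA was sequenced from 9 libraries of stromal vascular fraction (SVF) cells, the cells of adipose tissue that remain when mature adipocytes are removed and that include preadipocytes. The 3 groups of 3 libraries were cells differentiated for 6 days with mizoribine (MIZ), a drug that blocks inosine monophosphate dehydrogenase and so the making of guanine nucleotides, cells given vehicle (DMSO) over the same 6 days of differentiation, and undifferentiated cells. By the study's methods the cells came from subcutaneous white adipose tissue of neonatal mice aged 4 to 6 days, labelled WT with no strain given, and the MIZ dose was 25 µM by the legend that describes this experiment. Both differentiated groups received insulin, dexamethasone and IBMX and then insulin, troglitazone, rosiglitazone and T3, so PPARγ agonists were present with and without MIZ. Libraries are described as biological replicates, cells of single animals were kept in separate cultures by the methods, and the SVF is a mixture of cell types that was not sorted for this experiment.

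Complex I oxidizes NADH in the mitochondrial matrix, passes the electrons along a chain of iron-sulfur clusters to ubiquinone, and pumps protons across the inner membrane. Its peripheral arm is made of the N module, where NADH binds, and the Q module, where ubiquinone is reduced. Its membrane arm, which holds the proton-pumping subunits encoded in mitochondrial DNA, is built from a proximal and a distal part. The core subunits are those with bacterial counterparts and carry the cofactors and pumps, and the supernumerary subunits surround them. Assembly factors bind intermediates and leave before the enzyme is complete. Mitochondrial content and respiratory chain genes are known to rise when preadipocytes become adipocytes.

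Total counts per library were between 28760721 and 55288455. Of the 17173 genes tested, 35.1% were lower and 35.9% higher with MIZ than with vehicle, so a change in this comparison was common. Levels are given as CPM, the counts of a gene scaled to a common library size. Summed levels of adipocyte markers were 2158 to 2449 CPM with MIZ, 19030 to 20190 CPM with vehicle and 706.5 to 797.3 CPM in undifferentiated cells, and 7 of 7 tested markers were lower with MIZ than with vehicle. The undifferentiated libraries carry the label primary adipocytes, and single markers differed there. Cidec, a marker of lipid droplets, was at 0 counts in all 3 of them, while Cebpa had 56.3 to 57.8 CPM. Lpl had 637.3 to 726.3 CPM in undifferentiated cells, which was most of the adipocyte sum in that group. With MIZ, Lpl (1215 to 1275 CPM) was also the larger part of the sum. Smooth muscle and pericyte markers summed to 3545 to 4919 CPM with MIZ, 112.9 to 125.5 CPM with vehicle and 458.2 to 555.8 CPM in undifferentiated cells. Most of this sum was Acta2 (3154 to 4379 CPM with MIZ), and of the 6 markers 4 were higher, 1 (Cspg4) was lower and 1 (Des) was not called with MIZ against vehicle. Immune markers summed to 871.5 to 1204 CPM with MIZ, 403.4 to 750.5 CPM with vehicle and 3443 to 3550 CPM in undifferentiated cells. Lyz2 (416.1 to 571.5 CPM) and Adgre1 (318 to 470.2 CPM) made up most of the immune sum with MIZ. Of the 6 immune markers, 3 were higher and 3 (Ptprc, Cd68 and Csf1r) were not called with MIZ against vehicle. The means of Ptprc, Cd68 and Csf1r with MIZ were 0.904, 0.863 and 0.799 times those with vehicle, with overlapping libraries. Stromal markers summed to 992.2 to 1162 CPM with MIZ, 333.7 to 402.6 CPM with vehicle and 1106 to 1200 CPM in undifferentiated cells. Of these 6 markers, 3 were higher, 1 (Cd34) was lower and 2 (Dlk1 and Dpp4) were not called with MIZ against vehicle. Endothelial markers summed to 4.94 to 5.37 CPM with MIZ, 8.43 to 10.3 CPM with vehicle and 79.1 to 101.2 CPM in undifferentiated cells. Of the 5 endothelial markers tested, 3 were lower and 2 were not called with MIZ against vehicle. Brown or beige adipocyte markers summed to 4.235 to 4.53 CPM with MIZ, 429.4 to 434.1 CPM with vehicle and 0.922 to 1.68 CPM in undifferentiated cells. Most of this sum with MIZ was Cox7a1 (3.58 to 4.30 CPM), itself a respiratory chain gene. Of the 4 markers, 2 were higher and 2 (Ucp1 and Cidea) were not called with MIZ against undifferentiated cells. The summed adipocyte and brown or beige markers had the same order of groups as the Nduf genes, whereas the stromal, immune and smooth muscle sums were lowest with vehicle and the endothelial sum was highest in undifferentiated cells. The part of these cell types in the Nduf results was not tested. In bulk RNA, fewer cells of a type and less RNA per cell cannot be told apart.

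Every Nduf gene was lower with MIZ than with vehicle. The 37 subunits summed to 1505, 1501 and 1548 CPM in the MIZ libraries, against 5443, 5433 and 5457 CPM in the vehicle libraries, and to 1130, 1090 and 1089 CPM in the undifferentiated libraries. The MIZ libraries therefore lay far below the vehicle libraries and slightly above the undifferentiated ones, with no overlap between any of the groups. With edgeR's quasi-likelihood test at an adjusted p under 0.05, 47 of 47 members were lower with MIZ than with vehicle (35.1% of all genes tested were), and the largest adjusted p of a member was 0.000505. Of the 47, 41 were lower by more than 2-fold (16.8% of all genes tested) and 14 by more than 4-fold (7.62%). Several members lay close to these limits, and across the alternative fits 38 to 41 members passed 2-fold and 10 to 16 passed 4-fold, the lowest counts being those with upper quartile scaling. The median log2 fold change was -1.86 over the 37 subunits and -0.70 over the 8 assembly factors, beside 0.02 over all genes tested.

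Every member was also higher in vehicle-treated than in undifferentiated cells. In this comparison 47 of 47 members passed the test (36.2% of all genes tested), 43 of them by more than 2-fold (17.2%) and 29 by more than 4-fold (8.76%). Median log2 fold changes were 2.28 for the subunits and 1.04 for the assembly factors, beside -0.08 over all genes tested. This comparison and the one of MIZ with vehicle share the vehicle libraries, so a member that is high in vehicle is placed high in one and low in the other by the same values.

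Set against undifferentiated cells, MIZ-treated cells had slightly more of most members. Of the 47, 41 were higher (33.7% of all genes tested), 1 was lower (33.3%) and 5 did not pass the test. The median log2 fold change was 0.47 over the subunits and 0.21 over the assembly factors, and 1 member, Ndufa4l2, was higher by more than 2-fold (9.88% of all genes tested). In 44 of the 47 members, and in 36 of the 37 subunits, all 3 MIZ libraries lay below every vehicle library and above every undifferentiated library, an order that 13.4% of all genes tested had.

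**Figure D1:**
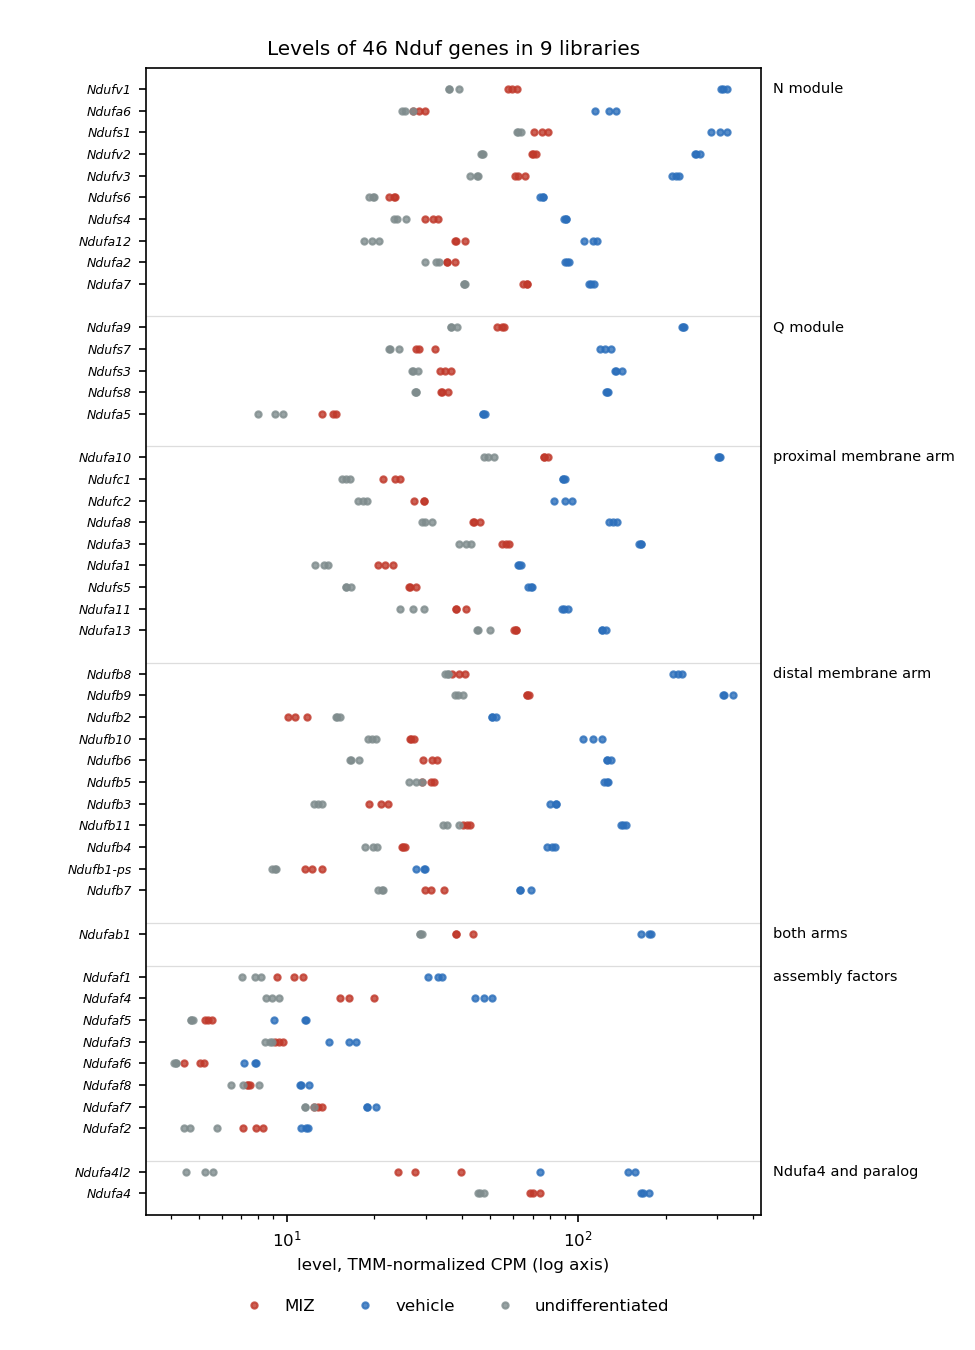
TMM-normalized level in CPM on a log axis (horizontal) of 46 of the 47 Nduf genes (vertical, ordered by module and then by change with MIZ), with 1 point for each of the 9 libraries. MIZ points sit left of the vehicle points in every row, and in 43 rows they sit right of all undifferentiated points. Of the 17173 genes tested, 6178 had all MIZ libraries below vehicle and 6366 had all MIZ libraries above undifferentiated cells.

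To see what the members share that their names do not fix, the 300-base windows around the gene starts (250 bases before and 50 after) were searched for 4 motifs of factors known to bind promoters of respiratory chain genes or widely at gene starts. Sequences came from RefSeq, build GRCm38.p6, and 41 members matched by symbol. The other 6, Ndufs1 and Ndufb9 among them, had no entry. Both strands were searched, N stands for any base, and the matches in members do not share letters between motifs. The NRF1 motif, whose letters are in capitals in the longer stretches below, was found in 9 of 41 members (22%), beside 5.19% of the 27025 genes in the table. The YY1 motif AANATGGCG was in 8 of 41 members (19.5%), beside 2.76% of all genes. The GABPA motif CCGGAAG was in 6 (14.6%), beside 9.93%, and the ERR motif TNAAGGTCA was in 1 member, Ndufb4 (2.44%), beside 1.43%. A match is a description of letters, and binding was not measured. The genes in the table were not limited to those expressed here, and no comparison with genes of like level or base content was made.

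Of the 8 YY1 matches, 6 began after the RefSeq gene start, between base 11 and base 36 counted from that start. They are shown because the same 9 letters, in capitals, recur on the coding strand of genes from the N module (Ndufs4, Ndufs6), the Q module (Ndufs7, Ndufa9), the proximal membrane arm (Ndufc1) and the assembly factors (Ndufaf8). These letters include ATG, the letters of a start codon, and whether the matches lie at the translation start was not tested. In GENCODE M21 several of these genes start further out, such as Ndufs7 at chr10:80249121 and Ndufs4 at chr13:114388258. Their matches lie further inside those annotated genes. Each match is shown in a 23-base stretch written 5′ to 3′ along the gene.
Ndufc1 (chr3:51408921-51408943, minus strand): cctgcggaacAAGATGGCGccgt
Ndufa9 (chr6:126849103-126849125, minus strand): attgtgggagAAGATGGCGgccg
Ndufs7 (chr10:80249463-80249485, plus strand): ggccgaggccAAGATGGCGgcgc
Ndufaf8 (chr11:120098934-120098956, plus strand): ggcagggcccAAGATGGCGgcgc
Ndufs6 (chr13:73328437-73328459, minus strand): ggtcaccggcAAGATGGCGgcgg
Ndufs4 (chr13:114388047-114388069, minus strand): tgcctacaggAAGATGGCGgcgg

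Upstream of the start, the NRF1 letters are shown for 1 assembly factor and 2 membrane arm subunits that were among the members with matches. The stretches lie before the RefSeq start, were shortened where an annotated UTR reached into them, and carry the match in capitals.
Ndufaf4 (chr4:24897933-24898082, plus strand): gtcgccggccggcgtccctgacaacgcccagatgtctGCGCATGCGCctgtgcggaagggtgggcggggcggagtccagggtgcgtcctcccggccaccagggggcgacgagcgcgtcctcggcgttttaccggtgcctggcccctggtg
Ndufs5 (chr4:123718203-123718336, minus strand): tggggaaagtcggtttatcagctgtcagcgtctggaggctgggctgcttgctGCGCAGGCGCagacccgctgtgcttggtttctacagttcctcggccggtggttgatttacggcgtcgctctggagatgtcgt
Ndufa11 (chr17:56717686-56717761, plus strand): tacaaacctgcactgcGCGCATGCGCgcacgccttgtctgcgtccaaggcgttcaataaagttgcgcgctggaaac
The ERR letters of Ndufb4, the one member with that motif, lay 57 bases before the RefSeq start. In GENCODE M21 the Ndufb4 gene starts further out, at chr16:37654453, so the stretch lies inside that annotated gene.
Ndufb4 (chr16:37654410-37654432, minus strand): ctgagccTGAAGGTCAgactcga
The 9 members with an NRF1 match were Ndufa5, Ndufa6, Ndufa8, Ndufa11, Ndufaf4, Ndufaf5, Ndufb4, Ndufs5 and Ndufs6, and their log2 fold changes for MIZ against vehicle ran from -2.14 for Ndufa6 to -1.01 for Ndufaf5. The 8 members with a YY1 match, which were the 6 shown with Ndufa7 and Ndufb11, ran from -2.07 for Ndufs7 and Ndufa9 to -0.63 for Ndufaf8. Members with a match were thus found among both the larger and the smaller changes.

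All 10 N module genes were lower with MIZ than with vehicle, 9 of them by more than 2-fold, with a median log2 fold change of -1.74. Ndufv1, the subunit that holds the flavin and binds NADH, changed most, with 57.6, 59.5 and 61.5 CPM in the MIZ libraries, against 325, 316 and 309 CPM in the vehicle libraries and 38.9, 36.2 and 36.2 CPM in the undifferentiated libraries. The MIZ libraries of Ndufv1 were all far below vehicle and all above undifferentiated cells. Its log2 fold change was -2.41 (standard error 0.05, edgeR adjusted p = 2.62e-11) for MIZ against vehicle and 3.09 for vehicle against undifferentiated cells, the largest rise of any N module gene. Ndufs1, the largest core subunit with several iron-sulfur clusters, had 70.8, 75.1 and 78.7 CPM with MIZ, 325, 306 and 286 CPM with vehicle and 63.9, 62.0 and 61.9 CPM in undifferentiated cells. Ndufs1 changed by -2.03 on the log2 scale against vehicle and by 0.26 against undifferentiated cells. Ndufv2, a core iron-sulfur subunit, had 69.9, 69.5 and 71.9 CPM with MIZ, 252, 254 and 263 CPM with vehicle and 46.3, 47.2 and 46.9 CPM in undifferentiated cells, a log2 fold change of -1.86 against vehicle.

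Ndufa7, a supernumerary subunit of the same module on chromosome 17, changed least of all 37 subunits. It had 67.0, 64.5 and 66.6 CPM with MIZ, against 111, 109 and 114 CPM with vehicle, and 40.6, 40.7 and 40.8 CPM in undifferentiated cells. Its log2 fold change was -0.75 (standard error 0.04, edgeR adjusted p = 1.68e-08) against vehicle, the only one of a subunit short of 2-fold. The ratio of Ndufa7 to Ndufv1 CPM was 1.082 to 1.164 in MIZ libraries, 0.340 to 0.368 in vehicle libraries and 1.04 to 1.13 in undifferentiated libraries, so these 2 genes of 1 module stood in about the same proportion with MIZ as before differentiation. Ndufa12, whose place in the enzyme is held by Ndufaf2 during assembly, was the subunit most above its undifferentiated level with MIZ. It had 38.0, 41.1 and 37.7 CPM with MIZ and 105, 113 and 116 CPM with vehicle, against 19.6, 20.7 and 18.4 CPM in undifferentiated cells, with log2 fold changes of -1.51 against vehicle and 0.99 against undifferentiated cells.

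All 6 Q module genes were lower with MIZ than with vehicle, with a median log2 fold change of -2.02. Ndufs7 is a core subunit at the site where ubiquinone is reduced. Ndufs7 had 28.6, 27.9 and 32.3 CPM with MIZ, against 119, 124 and 130.2 CPM with vehicle, and 24.4, 22.7 and 22.5 CPM in undifferentiated cells. The vehicle libraries stood apart, and the log2 fold change of Ndufs7 against vehicle was -2.07 (standard error 0.07, edgeR adjusted p = 3.38e-10). Among other core subunits of this module, the log2 fold changes against vehicle were -1.96 for Ndufs3 and -1.86 for the iron-sulfur subunit Ndufs8. Ndufa5, a small supernumerary subunit, changed least in the module (13.3, 14.4 and 14.7 CPM with MIZ, 47.8, 47.3 and 47.1 CPM with vehicle, 9.16, 9.75 and 8.004 CPM in undifferentiated cells), a log2 fold change of -1.75.

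In the proximal membrane arm, 9 of 9 genes were lower with MIZ than with vehicle, with a median log2 fold change of -1.54. Ndufa10, which has the fold of a nucleoside kinase, was at one end with 76.6, 76.5 and 78.8 CPM with MIZ, against 307, 305 and 303 CPM with vehicle, and 51.6, 47.6 and 49.1 CPM in undifferentiated cells (log2 fold change against vehicle -1.98). Ndufa13, also known as GRIM-19 from work on cell death, was at the other with 61.3, 61.5 and 60.5 CPM with MIZ, against 121, 125 and 121 CPM with vehicle, and 49.9, 45.1 and 45.2 CPM in undifferentiated cells (log2 fold change -1.001). These ends lie at the limits of 4-fold and 2-fold, and Ndufa10 was just past 4-fold with RLE size factors, with DESeq2, and without MIZ library 3 (-2.0046) or vehicle library 3, while Ndufa13 was short of 2-fold with upper quartile scaling (-0.94). Both genes had MIZ libraries clear of each of the other groups.

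In the distal membrane arm, 11 of 11 genes were lower with MIZ, 6 of them by more than 4-fold, and the median of their log2 fold changes was -2.02. Ndufb8, whose protein the study probed on blots, had the largest fall of all 47 members. It had 36.8, 39.1 and 40.9 CPM with MIZ, 212, 221 and 228 CPM with vehicle and 35.1, 35.9 and 35.9 CPM in undifferentiated cells, so the MIZ libraries were next to the undifferentiated ones. The log2 fold change against vehicle was -2.50 (standard error 0.05, edgeR adjusted p = 2.71e-11). Ndufb7, a subunit with disulfide bonds that faces the intermembrane space, changed least, with 34.7, 29.8 and 31.3 CPM with MIZ, against 69.0, 63.4 and 63.1 CPM with vehicle, and 21.4, 21.3 and 20.7 CPM in undifferentiated cells (log2 fold change -1.03). Ndufab1, the mitochondrial acyl carrier protein that sits in both arms and also serves fatty acid synthesis in mitochondria, had 38.2, 38.1 and 43.6 CPM with MIZ, against 178, 175 and 164 CPM with vehicle, and 28.6, 29.2 and 28.6 CPM in undifferentiated cells. Its log2 fold change was -2.11 against vehicle.

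The 7 nuclear core subunits had a median log2 fold change of -2.03 for MIZ against vehicle, in a range of -2.41 to -1.86, and the 30 supernumerary subunits one of -1.72, within -2.50 to -0.75. For vehicle against undifferentiated cells the medians were 2.31 for core and 2.21 for supernumerary subunits, and for MIZ against undifferentiated cells 0.35 for core and 0.52 for supernumerary subunits. The range of the core genes lay inside that of the supernumerary genes, and the difference was not tested.

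**Figure D2:**
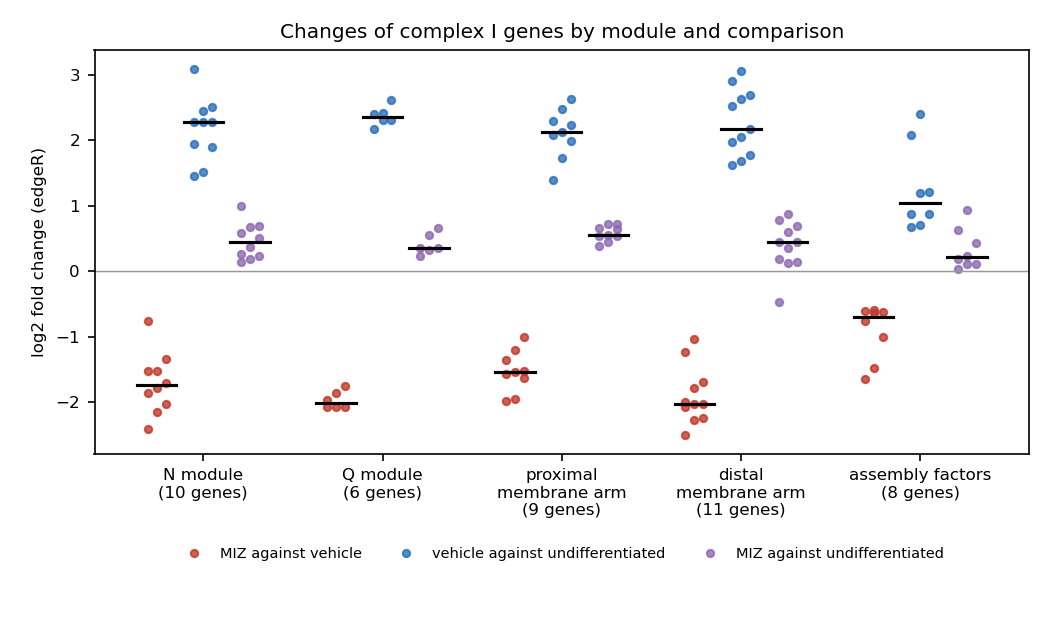
Log2 fold change from edgeR (vertical) of each gene in the 4 modules and the assembly factors (horizontal) for 3 comparisons, with 1 point per gene and a bar at each median. For MIZ against vehicle the medians of the 4 modules lie between -2.02 and -1.54 and that of the assembly factors at -0.70, and the points for MIZ against undifferentiated cells run from -0.46 for Ndufb2, the one gene called lower there, to 0.99 for Ndufa12.

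The modules did not keep their proportions. Genes of the proximal membrane arm took 25.3, 24.9 and 24.8% of the summed subunit CPM in MIZ libraries, against 20.4, 20.8 and 20.6% in vehicle libraries, and 23.9, 23.1 and 23.2% in undifferentiated libraries. The share of the distal membrane arm was 22.2% ± 0.23 with MIZ, 25.01% ± 0.45 with vehicle and 22.9% ± 0.35 in undifferentiated cells (SD, n = 3 each), and that of the Q module was 17.7% ± 0.18 with MIZ, 20.0% ± 0.28 with vehicle and 19.1% ± 0.16 in undifferentiated cells. The proximal share was thus higher, and the distal and Q shares lower, in every MIZ library than in every vehicle library. For the N module the share was 32.2 to 32.7% with MIZ, 31.1 to 31.4% with vehicle and 31.8 to 32.4% in undifferentiated cells. With 3 libraries against 3 the groups cannot give an exact permutation p below 0.1, so no test is given for these shares.

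The 8 Ndufaf assembly factors were all lower with MIZ than with vehicle, but 3 of the 8 changed by more than 2-fold, where 36 of the 37 subunits did. Ndufaf1, part of a complex that helps to build the membrane arm, had 9.26, 10.6 and 11.4 CPM with MIZ, 30.6, 34.0 and 33.1 CPM with vehicle and 7.82, 7.06 and 8.18 CPM in undifferentiated cells. Its MIZ libraries were below all vehicle libraries and above all undifferentiated ones, and the log2 fold change of -1.65 (standard error 0.09, edgeR adjusted p = 2.38e-08) against vehicle was the largest of the assembly factors. Ndufaf4, a factor of early Q module assembly, had 15.2, 16.3 and 19.9 CPM with MIZ, 50.7, 47.6 and 44.3 CPM with vehicle and 8.48, 9.44 and 8.94 CPM in undifferentiated cells. Ndufaf4 was lower than vehicle by a log2 fold change of -1.47 and higher than undifferentiated cells by 0.93, and in vehicle it was 2.41 above undifferentiated cells. It is the factor whose NRF1 letters are shown above.

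Ndufaf5 and Ndufaf8 are partners in the hydroxylation of an arginine of Ndufs7. Ndufaf5 had 5.53, 5.38 and 5.26 CPM with MIZ, against 9.08, 11.6 and 11.7 CPM with vehicle, and 4.68, 4.76 and 4.69 CPM in undifferentiated cells, a log2 fold change of -1.01 against vehicle. Ndufaf8 had 7.29, 7.39 and 7.51 CPM with MIZ, against 11.2, 11.1 and 11.96 CPM with vehicle, and 8.07, 7.08 and 6.45 CPM in undifferentiated cells, a log2 fold change of -0.63 against vehicle. In both genes every MIZ library was below every vehicle library, and for Ndufaf8 the MIZ libraries lay within the undifferentiated ones. Ndufaf7, a methyltransferase, had 12.4, 13.2 and 12.8 CPM with MIZ, against 18.9, 20.3 and 19.0 CPM with vehicle, and 11.6, 12.5 and 11.6 CPM in undifferentiated cells, a log2 fold change of -0.60 against vehicle.

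Ndufaf2, a paralog of Ndufa12 that it replaces until a late step, had 7.07, 7.85 and 8.28 CPM with MIZ, against 11.7, 11.2 and 11.9 CPM with vehicle, and 4.45, 4.67 and 5.77 CPM in undifferentiated cells. Its log2 fold change against vehicle, -0.59 (standard error 0.11, edgeR adjusted p = 0.000505), was the smallest of the 47 members. The ratio of Ndufaf2 to Ndufa12 CPM was 0.186 to 0.219 with MIZ, 0.0992 to 0.112 with vehicle and 0.225 to 0.314 in undifferentiated cells. Ndufaf6, needed at an early step of assembly, had 4.46, 5.19 and 5.03 CPM with MIZ, against 7.16, 7.85 and 7.78 CPM with vehicle, and 4.11, 4.16 and 4.18 CPM in undifferentiated cells, a log2 fold change of -0.64 against vehicle. All of these factors were below the vehicle libraries in every MIZ library, as were 6178 of the 17173 genes tested.

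Ndufaf3, the partner of Ndufaf4 in early assembly, had 9.42, 9.69 and 9.11 CPM with MIZ, against 14.0, 16.4 and 17.3 CPM with vehicle, and 8.91, 8.41 and 8.77 CPM in undifferentiated cells, a log2 fold change of -0.76 against vehicle. Its gene (chr9:108565537-108567434, minus strand, GENCODE M21 on GRCm38) and Impdh2 (chr9:108560286-108565584, plus strand) overlap by 48 bases at their 3′ ends. Impdh2 and Impdh1 encode the inosine monophosphate dehydrogenases that MIZ blocks. Impdh2 had 141, 136 and 156 CPM with MIZ, 43.1, 45.1 and 44.97 CPM with vehicle and 56.2, 50.5 and 52.8 CPM in undifferentiated cells. Its log2 fold change was 1.70 against vehicle. Impdh1 went the other way, with 36.0, 34.1 and 36.9 CPM with MIZ and 124, 180 and 190 CPM with vehicle. Its log2 fold change was -2.21 against vehicle. The strand setting of the counting is not given in the sources used here, and how many Ndufaf3 counts came from Impdh2 was not tested.

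The share of assembly factors relative to subunits was higher with MIZ than with vehicle. The summed assembly factor CPM was 4.70, 5.04 and 5.12% of the summed subunit CPM in the MIZ libraries, against 2.82, 2.95 and 2.88% in the vehicle libraries, and 5.14, 5.32 and 5.38% in the undifferentiated libraries. The vehicle libraries were lower than every other library, and the MIZ libraries were all below the undifferentiated ones. Summed assembly factor CPM was 70.7 to 79.3 with MIZ, 153.3 to 160 with vehicle and 58.0 to 58.6 in undifferentiated cells.

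**Figure D3:**
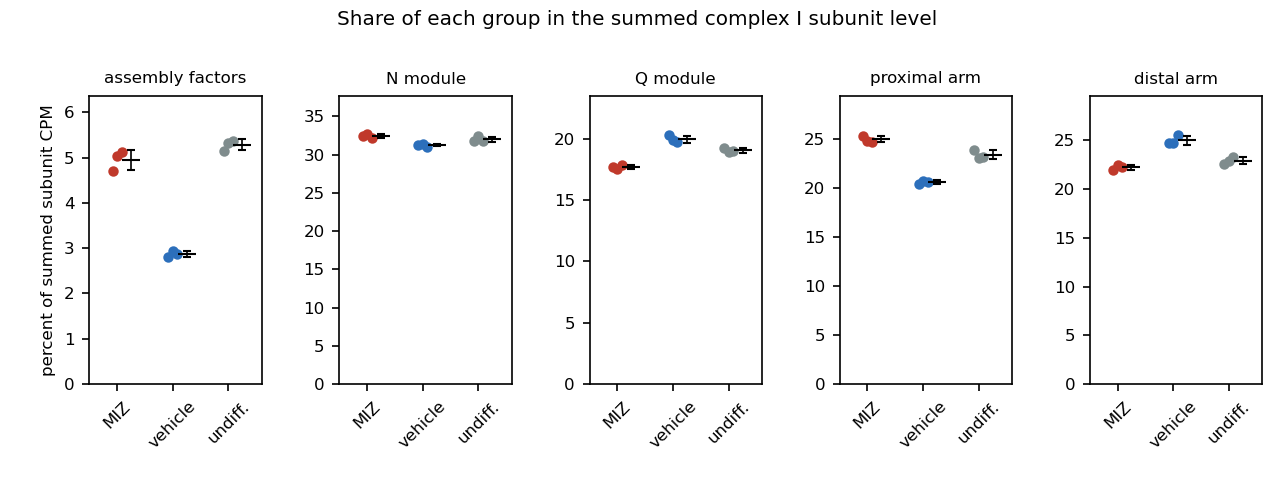
Summed CPM of the 8 assembly factors and of the 4 modules as percent of the summed CPM of the 37 subunits (vertical, starting at 0) in each library of the 3 groups (horizontal), with the mean and SD of 3 libraries. The mean assembly factor share is 4.95% with MIZ, 2.88% with vehicle and 5.28% in undifferentiated cells, and the proximal share is highest with MIZ.

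Ndufb2, a supernumerary subunit of the distal arm, was the one member called lower with MIZ than in undifferentiated cells. It had 10.1, 10.7 and 11.8 CPM with MIZ, 50.7, 52.4 and 50.6 CPM with vehicle and 15.2, 14.9 and 14.8 CPM in undifferentiated cells. The MIZ and undifferentiated libraries did not overlap, and the log2 fold change was -0.46 (standard error 0.06, edgeR adjusted p = 6.48e-05). The ratio of Ndufb2 to Ndufb8 CPM was 0.274 to 0.289 with MIZ, 0.222 to 0.239 with vehicle and 0.411 to 0.433 in undifferentiated cells.

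The members most above their undifferentiated level with MIZ, after Ndufa4l2, were Ndufa12 and Ndufaf4 (both above), Ndufb6 and Ndufb9. Ndufb6 had 29.3, 31.5 and 32.7 CPM with MIZ, 129.8, 126 and 126 CPM with vehicle and 16.6, 16.5 and 17.7 CPM in undifferentiated cells, with a log2 fold change of 0.87 for MIZ against undifferentiated cells. Ndufb9, a subunit of the family that binds the acyl carrier protein, had 66.9, 67.9 and 66.9 CPM with MIZ, 315, 318 and 339 CPM with vehicle and 38.6, 37.8 and 40.3 CPM in undifferentiated cells, with a log2 fold change of 0.79 for MIZ against undifferentiated cells. In both genes the MIZ libraries were above every undifferentiated library and far below every vehicle library. The log2 fold change of Ndufb9 of 3.06 for vehicle against undifferentiated cells was the largest of the distal arm.

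The 5 members that did not pass the test were Ndufa6 (0.14, edgeR adjusted p = 0.0882), Ndufaf5 (0.19, adjusted p = 0.138), Ndufaf3 (0.11, adjusted p = 0.276), Ndufaf7 (0.11, adjusted p = 0.162) and Ndufaf8 (0.04, adjusted p = 0.713). In Ndufa6, Ndufaf3 and Ndufaf5 all 3 MIZ libraries lay above every undifferentiated library. This order was common, as 6366 of the 17173 genes tested had it. Ndufb8, at 0.13 (edgeR adjusted p = 0.0445), and Ndufaf6, at 0.23 (edgeR adjusted p = 0.0497), passed by little. Without any 1 of MIZ libraries 2 and 3, vehicle libraries 2 and 3 and the 3 undifferentiated libraries neither passed, with adjusted p between 0.0540 and 0.173 for Ndufb8 and between 0.0690 and 0.148 for Ndufaf6. Ndufb5, at 0.15 (edgeR adjusted p = 0.0288), did not pass without MIZ library 2 or 3 or undifferentiated library 1 or 2 (adjusted p between 0.0770 and 0.134), and Ndufa6 passed without vehicle library 1 (adjusted p = 0.0265). No member's call against vehicle, or of vehicle against undifferentiated cells, depended on a single library.

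**Figure D4:**
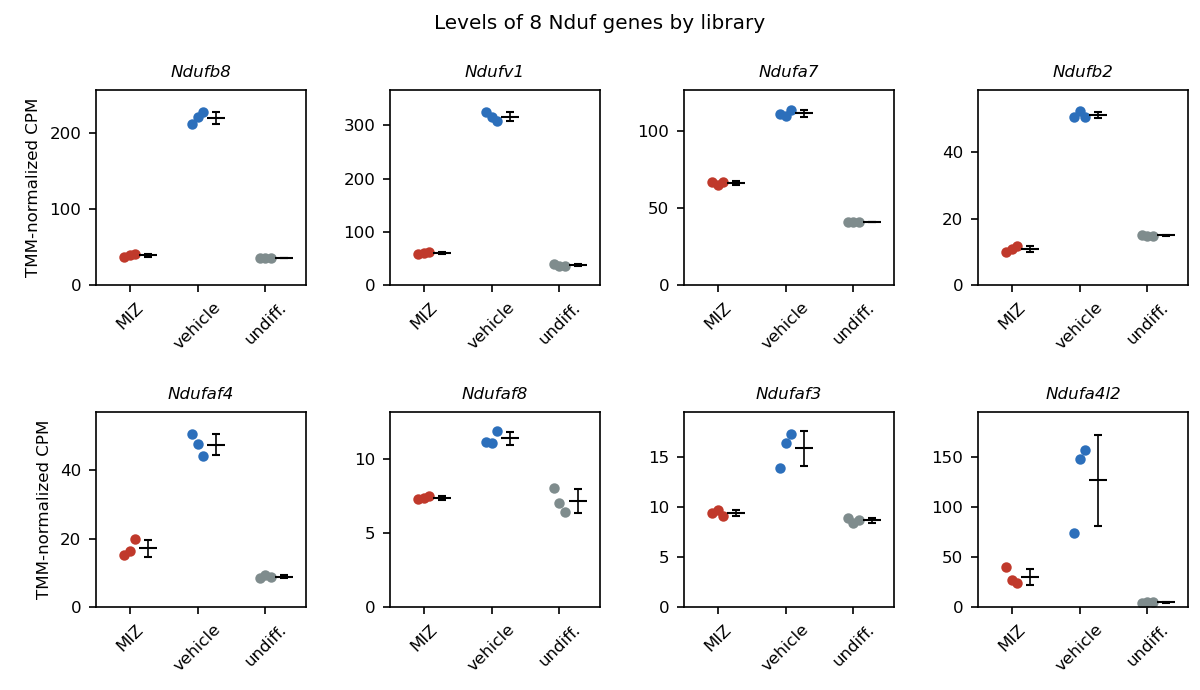
TMM-normalized CPM (vertical, starting at 0) of 8 Nduf genes in the MIZ, vehicle and undifferentiated libraries (horizontal), with the mean and SD of 3 libraries. Ndufb8 with MIZ lies next to undifferentiated cells, Ndufa7 lies between the other groups, Ndufb2 lies below undifferentiated cells, and vehicle library 1 of Ndufa4l2 is lower than the other vehicle libraries.

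Ndufa4 and Ndufa4l2 carry the family name without being held as complex I subunits. Ndufa4 had 70.1, 68.4 and 74.1 CPM with MIZ, 175, 165 and 167 CPM with vehicle and 47.6, 46.0 and 45.5 CPM in undifferentiated cells, a log2 fold change of -1.25 against vehicle. Its paralog Ndufa4l2, known as a gene induced by low oxygen, had 39.7, 27.5 and 24.0 CPM with MIZ, 74.1, 148 and 157 CPM with vehicle and 4.50, 5.24 and 5.58 CPM in undifferentiated cells. The groups did not overlap, but vehicle library 1 had far less than the other vehicle libraries. Ndufa4l2 had the largest rise of any member with vehicle, 4.63 (standard error 0.31), and with MIZ it had the largest excess over undifferentiated cells, 2.57 (standard error 0.30, edgeR adjusted p = 1.89e-05), while its log2 fold change against vehicle was -2.06 (standard error 0.26). Its exons overlap by 32 bases with those of Shmt2, a mitochondrial serine hydroxymethyltransferase on the other strand that had 107.8 to 129.1 CPM with MIZ, 174.8 to 195.6 CPM with vehicle and 46.3 to 46.97 CPM in undifferentiated cells. Shmt2 thus had the same order of groups as Ndufa4l2, with log2 fold changes of -0.69 for MIZ against vehicle and 2.00 for vehicle against undifferentiated cells, and how many Ndufa4l2 counts came from it was not tested.

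Levels between genes were compared per kilobase of exon. The median subunit had 24.8 CPM per kilobase with MIZ, 82.4 with vehicle and 16.1 in undifferentiated cells, and the median assembly factor had 4.18 with MIZ, 7.45 with vehicle and 3.38 in undifferentiated cells. With the length of the principal transcript in place of the union of exons, available for 36 subunits, the subunit medians were 39.7 with MIZ, 134.5 with vehicle and 26.7 in undifferentiated cells, and those of the assembly factors were 6.76 with MIZ, 12.1 with vehicle and 5.57 in undifferentiated cells. On both scales the median assembly factor was thus below the median subunit in each group, while the ranges overlapped. Ndufb2 with MIZ had 1.93 CPM per kilobase of exon, below all 8 assembly factors. That value rests on a long annotated exon length of 5628 bases. Before division by length, its mean of 10.86 CPM with MIZ was above that of Ndufaf8 (7.40) and below that of Ndufaf4 (17.15).

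Members lie on 18 chromosomes, and some cannot be counted without doubt. Exons of 17 members overlap those of another gene, in all 17 cases on the opposite strand, and 9 members have a near-identical copy elsewhere in the annotated transcripts (at least 95% identity over at least 150 bases). The copies, mostly processed pseudogenes, are not in the count tables, so how reads were shared with them is unknown. The 17 subunits with neither an overlap nor a copy were all lower with MIZ than with vehicle, 16 by more than 2-fold. Their median, -1.86, was that of all 37 subunits. Ndufb1-ps is annotated as a noncoding transcript in GENCODE M21 and was counted among the subunits by its symbol. It had 11.6, 12.3 and 13.3 CPM with MIZ, against 29.8, 27.8 and 29.7 CPM with vehicle, and 8.91, 9.10 and 9.17 CPM in undifferentiated cells.

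Complex I genes outside the naming rule gave a wider range. The core subunits of the membrane arm are encoded in mitochondrial DNA, and 6 of the 7 were tested, mt-Nd4l having 23 counts in all libraries together. All 6 were lower with MIZ than with vehicle by more than 4-fold, with a median log2 fold change of -2.86, beside -1.86 for the nuclear subunits. mt-Nd1, which anchors the Q module in the membrane, had 799, 930 and 1017 CPM with MIZ, 9464, 7510 and 6680 CPM with vehicle and 997, 1088 and 1023 CPM in undifferentiated cells. The vehicle libraries were all far higher, and the MIZ libraries overlapped the undifferentiated ones (log2 fold change -3.11 against vehicle and -0.18 against undifferentiated cells, edgeR adjusted p = 0.225 for the second). mt-Nd5 was lower with MIZ than in undifferentiated cells (955, 1058 and 1175 CPM with MIZ, 1369, 1479 and 1379 CPM in undifferentiated cells), a log2 fold change of -0.41 (edgeR adjusted p = 0.00518). The end of mt-Nd5 overlaps mt-Nd6 on the other strand, and how reads were divided between them was not tested. Against undifferentiated cells the median was -0.15 for the 6 mitochondrial genes and 0.47 for the 37 nuclear subunits, and this difference was not tested.

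The log2 fold changes against vehicle were -3.04 for mt-Nd2, -2.67 for mt-Nd4, -2.59 for mt-Nd5, -2.60 for mt-Nd6 and -3.95 for mt-Nd3, the last with 0.384 to 0.760 CPM with MIZ and 7.67 to 8.35 CPM with vehicle. By the methods, libraries went through both ribosomal RNA depletion and poly-A selection, and how far this shaped the levels of mitochondrial transcripts was not tested.

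Of 13 assembly factors of complex I that are not named Nduf, 12 were found and tested, 10 of them being lower with MIZ (median over the 12 against vehicle, -0.79 on the log2 scale). Foxred1, which acts late in the assembly of the enzyme, had the largest fall, with 16.0, 17.4 and 17.6 CPM with MIZ, against 91.0, 84.7 and 86.1 CPM with vehicle (log2 fold change -2.36). Aifm1, at -1.98, and Ecsit, a partner of Ndufaf1, at -1.75, came next. The 2 that were not called were Nubpl, which delivers iron-sulfur clusters (-0.20, edgeR adjusted p = 0.0582), and Lyrm2, which acts on the N module (0.06, edgeR adjusted p = 0.497). Nubpl passed without MIZ library 2 (edgeR adjusted p = 0.0492) and without vehicle library 1 (edgeR adjusted p = 0.0463), and with DESeq2 (DESeq2 adjusted p = 0.0432). Tmem70, which assists complexes I and V, had 35.6, 37.7 and 43.8 CPM with MIZ, 55.3, 52.4 and 49.0 CPM with vehicle and 17.4, 17.4 and 16.3 CPM in undifferentiated cells, and had the largest excess over undifferentiated cells of these factors (log2 fold change 1.20).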

How the data were processed

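The authors depleted ribosomal RNA and, by their methods, also selected poly-A RNA, sequenced paired reads and, after trimming by Trim Galore 0.6.7, aligned these to mm10 (GRCm38) with STAR. The authors deposited raw counts per gene, 1 table per library, without normalization. Counting is credited to STAR in the methods and to HTSeq in the labels, and the strand setting and annotation release are not given in the sources used here. Identifiers were given symbols from a table of Ensembl genes, and members were taken by symbol.

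Counts were analysed in R 4.3.3 with edgeR 4.0.16. A gene was kept if 3 or more libraries held 5 or more counts (17173 tested, 15112 left out), and the genes tested held 99.99% of all counts. After TMM normalization 1 quasi-likelihood model was fitted to the 9 libraries (biological coefficient of variation 0.0806), with Benjamini-Hochberg adjustment across the whole table and 0.05 as the threshold for an adjusted p-value. The p-values measure the spread between these libraries. Levels are CPM on TMM-normalized library sizes, values after a comma are in the order of libraries 1, 2 and 3, and totals per library set the precision. Module, core, assembly factor and marker lists, the members and the rule for named genes (the core subunits, each Ndufaf, the extremes of each module, the genes that did not pass, and Ndufb8) were chosen with earlier results of these data known. Medians and counts over lists are descriptions with no test.

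On data simulated for MIZ against vehicle with 16908 genes, the test found 68.2% of changes of size 0.5 (log2), 94% of changes of size 1 and 100% of changes of size 2, and 15 unchanged genes were called. Only 66, 67 and 67 genes were changed at these sizes, a far smaller share than was called in the data. These rates need not hold for the data themselves. Coordinates and exon lengths came from GENCODE M21, promoters from RefSeq (GRCm38.p6), and near-identical copies from blastn 2.17.0. DESeq2 1.42.0, other normalizations and filters, fits of only the 6 libraries compared, a fit without mitochondrially encoded genes, a replicate block and leaving out each library were tried as alternatives. Values of 1 member are not reported here, although it stays in the counts, sums and medians. The assembly factor Coa1 did not match a gene and was not analysed here. Python 3.11.15 with matplotlib 3.10.9 drew the figures.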

Additional observations from a re-analysis of the deposited data

How the results depend on the processing

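The counts of subunits and assembly factors called in each direction stayed within 1.5 times their values under every alternative run, and no Nduf gene lost or reversed its call for MIZ against vehicle or for vehicle against undifferentiated cells. Module medians moved by more than the spread between libraries in a few cases. With upper quartile scaling the medians for MIZ against vehicle were -1.67 for the N module and -1.95 for the Q module, and those for vehicle against undifferentiated cells were 2.21 for the N module, 2.29 for the Q module and 2.10 for the distal membrane arm. The Q module median for vehicle against undifferentiated cells was 2.41 with RLE size factors, 2.41 with DESeq2 and 2.41 in a fit of only the 6 libraries compared. With each library left out in turn, the Q module medians ranged from -2.05 to -1.98 for MIZ against vehicle, from 2.31 to 2.38 for vehicle against undifferentiated cells and from 0.30 to 0.39 for MIZ against undifferentiated cells. Values near 0 for MIZ against undifferentiated cells changed sign: Lyrm2 was 0.0168 with RLE size factors and 0.0174 with DESeq2, and with each library left out Lyrm2 ranged from -0.061 to 0.033, Dmac2 from -0.029 to 0.093, Tmem126b from -0.078 to 0.008, mt-Nd2 from -0.0059 to 0.21 and Ndufaf8 from -0.042 to 0.122. None of these was called in any of these fits, and the cause was not tested. Same-numbered libraries of different groups deviated with correlations between -0.045 and 0.063, and libraries with different numbers between -0.054 and 0.068. These values show no pairing by number, but they cannot tell whether libraries share an animal, which is not stated. With a replicate block, Ndufaf6 for MIZ against undifferentiated cells was 0.234 (edgeR adjusted p = 0.0573) and no longer passed, and no other member's call changed. Ndufaf6, Ndufb8 and Ndufb5 also lost this call under other settings with no library left out, the largest adjusted p from edgeR being 0.106 for Ndufaf6, 0.108 for Ndufb8 and 0.0645 for Ndufb5, each without a filter. Ndufa6 gained it with RLE size factors (edgeR adjusted p = 0.0452) and in the 6-library fit (0.0410). Outside the Nduf genes, mt-Nd3, with few counts, was -0.81 (edgeR adjusted p = 0.00808) against undifferentiated cells without MIZ library 2, and Nubpl was lower than vehicle with RLE size factors (-0.22, edgeR adjusted p = 0.0390), with DESeq2 (-0.23, DESeq2 adjusted p = 0.0432) and without mitochondrially encoded genes (-0.22, edgeR adjusted p = 0.0472). No scaling moved the median of all genes by more than 0.1 on the log2 scale. Total counts were lowest for Ndufaf6, Ndufaf5 and Ndufaf2, and the standard error against undifferentiated cells was largest for Ndufa4l2 (0.30), Ndufaf2 (0.11) and Ndufaf5 (0.11).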
